A study of Mus musculus with 13 samples.

Results

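The 45 genes described here are interferon-stimulated genes and the subunits of the type I interferon receptor, measured in mouse microglia. They were chosen by symbol from a table of 19737 genes, and all 45 symbols were found. They comprise 38 targets of type I interferon, 5 guanylate-binding and immunity-related GTPases (Gbp2, Gbp3, Gbp7, Igtp and Irgm1), and the receptor genes Ifnar1 and Ifnar2.

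RNA was sequenced from microglia in 13 libraries of 4 groups. Wild type mice given an AAV PHP.eB vector for EGFP gave 3 libraries, and 5xFAD mice given the same vector gave 2. Another 4 libraries came from 5xFAD mice given AAV PHP.eB carrying a circular RNA of POLR2A, and 4 from 5xFAD mice with a knockout of PKR, the kinase activated by duplex RNA that is encoded by Eif2ak2. In 5xFAD mice the Thy1 promoter drives human transgenes in neurons, and amyloid is deposited in the brain, and PHP.eB is a capsid that carries vectors from the blood into the brain. The circular RNA is labelled circPOLR2A(9,10) in replicate 1, and the second number is 11, 12 and 13 in replicates 2, 3 and 4, so it is not certain that these animals received an identical construct. For the PKR knockout mice no vector is named in the labels, and library names stand only with that group. The vector, and any difference in when libraries were made, therefore cannot be told apart from the knockout. Strain, age, sex and time after injection are not given in the sources used here. The labels do not say whether libraries of a group came from separate mice, so the p-values measure the spread between libraries, which may be technical.

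Type I interferons bind a receptor made of IFNAR1 and IFNAR2, and the signal passes through the kinases JAK1 and TYK2 to a complex that contains STAT2 and IRF9. This complex binds the interferon-stimulated response element (ISRE) in promoters and switches on a broad antiviral programme. Interferon gamma acts through a separate receptor on the gamma-activated site (GAS), and the GTPases studied here are induced by it with particular strength. Microglia respond to both kinds of interferon, and interferon-responsive microglia are known from mouse models of amyloid deposition.

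RefSeq promoter windows of GRCm38.p6, from 250 bases before to 50 bases after each annotated start, were matched for 38 of the 45 genes (45 windows). Windows of Ifi204, Ifi27l2a, Parp14, Parp9, Rtp4, Usp18 and Zbp1 were not matched. The ISRE core was searched as GAAA, any 2 bases and GAAA on both strands, and the GAS as the palindrome TTC, any 3 bases and GAA, with overlapping matches allowed. The sequences below show the ISRE matches of 4 type I targets and of the 5 GTPases, the classes whose levels are compared throughout, and the GAS match of Irf1, the member called between circRNA and PKR knockout. Each is written 5′ to 3′ on the strand of its gene with the matched bases in capitals, and an ISRE core on the opposite strand reads as TTTC, any 2 bases and TTTC. A run in capitals longer than 1 core holds overlapping matches (3 in Isg15, and 2 each in Gbp3 and Irgm1).
Ifit3, chr19:34583348-34583441, plus strand: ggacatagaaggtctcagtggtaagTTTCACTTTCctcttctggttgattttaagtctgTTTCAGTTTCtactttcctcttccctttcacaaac
Isg15, chr4:156200850-156200921, minus strand: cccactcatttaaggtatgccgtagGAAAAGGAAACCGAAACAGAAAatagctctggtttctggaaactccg
Stat2, chr10:128270251-128270310, plus strand: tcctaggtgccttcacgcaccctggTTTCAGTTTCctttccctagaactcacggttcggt
Cxcl10, chr5:92349068-92349127, minus strand: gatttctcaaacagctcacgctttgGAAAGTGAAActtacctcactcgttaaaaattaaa
Gbp2, chr3:142620579-142620638, plus strand: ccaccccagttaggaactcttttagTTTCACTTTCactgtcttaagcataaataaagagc
Gbp3, chr3:142559974-142560039, plus strand: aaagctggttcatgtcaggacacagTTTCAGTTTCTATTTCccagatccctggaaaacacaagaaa
Gbp7, chr3:142530258-142530317, plus strand: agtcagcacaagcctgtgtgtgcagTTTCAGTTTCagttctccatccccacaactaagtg
Igtp, chr11:58199497-58199556, plus strand: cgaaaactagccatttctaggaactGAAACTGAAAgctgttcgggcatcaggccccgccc
Irgm1, chr11:48871410-48871475, minus strand: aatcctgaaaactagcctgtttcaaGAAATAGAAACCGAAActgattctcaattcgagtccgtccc
Irf1, chr11:53769899-53769957, plus strand: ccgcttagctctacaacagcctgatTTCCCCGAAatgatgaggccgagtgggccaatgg
The ISRE core stood in 21 of the 45 windows of these genes (46.7%), against 3.44% of 32851 promoter windows of the same length. By gene, it was found in all 5 GTPases, in 14 of the 31 matched type I targets and in neither receptor gene, against 3.99% of all genes. The GAS pattern stood in 9 of the 45 windows (20.0%), against 8.30% of all windows. By gene, it was found in 5 of the 31 type I targets (Irf1, Ifit2, Bst2, Ifitm3 and Ifi35), in Igtp and Gbp7 among the GTPases and in Ifnar1 and Ifnar2. That made 9 of 38 genes (23.7%), against 9.55% of all genes. The 2 motifs overlapped in 2 of the windows of these genes. A match is a description of the letters, not a binding site, and no match says only that the letters are not in that window. The 3 Gbp genes lie together within chr3:142530342-142638008 in GENCODE, and their cores begin at -59, -45 and -53 from the RefSeq starts of Gbp2, Gbp3 and Gbp7. The RefSeq start of Gbp2 lies downstream of its GENCODE start (142620602), so these distances do not hold for the GENCODE positions. Gbp3 and Gbp7 fell in 5xFAD EGFP and Gbp2 did not pass the test.

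Depth, recovered from the smallest steps in the values, ranged from 45200000 to 69800000 fragments per library, and the 4 PKR knockout libraries were the deepest (57600000 or more). All 8 microglia markers were above 1 FPKM (fragments per kilobase of exon, scaled to the depth of the library) in every library. They summed to 3857, 3888 and 2430 FPKM in wild type replicates 1, 2 and 3. The sums were 2954 to 3174 in 5xFAD EGFP, 2784 to 4064 with circRNA and 3009 to 3265 in the knockout. Markers of T and NK cells were low, none of 6 being above 1 FPKM in every library. They summed to 0.113 to 0.152 FPKM in wild type, 0.471 to 0.537 in 5xFAD EGFP, 0.656 to 0.839 with circRNA and 0.568 to 0.731 in the knockout. In this sum wild type was below every other group, and 5xFAD EGFP below circRNA and knockout, without overlap. Taken singly, Klrb1c, Nkg7 and Cd3e had every 5xFAD library above wild type, while Cd3d, Cd8a and Gzmb overlapped. Each marker alone overlapped between circRNA and 5xFAD EGFP. Between knockout and 5xFAD EGFP, Nkg7 alone was separate. Monocyte and neutrophil markers summed to 4.89 to 6.44 FPKM in wild type, 3.76 to 8.12 in 5xFAD EGFP, 1.83 to 7.78 with circRNA and 1.57 to 16.9 in the knockout, with overlap. All 5 endothelial markers were above 1 FPKM in every library, and summed to 58.2 to 133 FPKM in wild type, 25.3 to 38.02 in 5xFAD EGFP, 37.0 to 73.6 with circRNA and 37.0 to 56.7 in the knockout. Mural cell markers, 3 of 4 above 1 FPKM in every library, summed to 34.3 to 79.5, 13.4 to 19.6, 18.6 to 35.1 and 17.4 to 30.9 FPKM in the same order. Border macrophage markers, also 3 of 4, summed to 28.8 to 46.0, 14.6 to 19.5, 11.0 to 19.5 and 10.5 to 14.7 FPKM. None of these markers was at 0 in all libraries. Oligodendrocyte markers summed to 256 to 280 FPKM in wild type replicates 1 and 2 and 1118 in replicate 3, 481 to 515 in 5xFAD EGFP, 215 to 564 with circRNA and 156 to 257 in the knockout, whose libraries were all below both 5xFAD EGFP libraries. Neuron markers summed to 10.5 to 12.6 FPKM in 5xFAD EGFP and 4.59 to 7.82 in the knockout, again without overlap, and to 4.69 to 15.1 in wild type and 3.59 to 10.6 with circRNA. The 5 astrocyte markers summed to 60.8 to 216 FPKM in wild type, 112 to 164 in 5xFAD EGFP, 104 to 189 with circRNA and 120 to 184 in the knockout, with overlap. Of these Gfap alone had every 5xFAD library (49.6 to 116 FPKM) above wild type (11.6 to 29.9). With the mean log2(FPKM + 1) of neuron, astrocyte, oligodendrocyte, endothelial and mural markers as a covariate, called members numbered 16 in place of 13 for 5xFAD EGFP against wild type, 33 in place of 32 for circRNA and 26 in place of 31 for the knockout against wild type, 0 in place of 1 for circRNA against knockout, and 0 as without it for circRNA or knockout against 5xFAD EGFP. The part of the other cell types in the results was not tested.

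The targeted gene was read before any comparison. Eif2ak2 measured 3.35, 4.61, 3.31 and 4.16 FPKM in the 4 knockout libraries, 6.49 and 6.59 in 5xFAD EGFP, 7.37, 7.48, 7.73 and 8.11 with circRNA and 5.18, 5.23 and 4.14 in wild type. The knockout libraries were below every other 5xFAD library, with signal remaining, and overlapped wild type. Which exons were deleted is not stated, so the remaining signal does not measure intact transcript. Against 5xFAD EGFP the log2 difference was -0.64 ± 0.11 (SE, adjusted p = 0.0644), and circRNA minus knockout was 0.85 ± 0.092 (SE, adjusted p = 0.00147).

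Levels of these genes spread widely per length. Over all 13 libraries the mean was above 10 FPKM for 9 of the 45, from 1 to 10 FPKM for 34 and below 1 FPKM for Rsad2 (0.982) and Ifi44 (0.281). Lgals3bp, a secreted glycoprotein that binds galectins, was the most abundant at a mean of 107.6 FPKM, followed by Bst2 (31.5), Ifnar2 (24.4), Ifitm3 (23.7) and Ifi27l2a (20.2). The number of fragments ran from 35 for Ifi44 to 35655 for Lgals3bp in a single library. Only genes averaging 1 FPKM or more over the libraries were tested, which kept 43 of the 45 and 10817 of all genes. Some genes share sequence with relatives or with overlapping annotated genes, so that the split of reads between them is uncertain. Of their exonic 50-base words, 51.2% of Ifit3 and 44.5% of Ifit3b are shared with each other, and 11.8% of Igtp are shared with Irgm2. Other genes hold 48.5% of those of Ifitm2, 20.0% of Ifi204 and 12.7% of Gbp7. For Ifitm2 and Gbp7 these are mostly Gm45717 (36.1%) and Gm43802 (10.5%), which overlap their exons on the same strand. Parp9 and Dtx3l overlap on opposite strands, and the strand setting of the counting is not stated.

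The mean of log2(FPKM + 1) over each class summarises the pattern. Over the 38 type I targets it was 2.22, 2.16 and 2.04 in wild type, 2.76 and 2.52 in 5xFAD EGFP, 2.72, 2.91, 3.12 and 2.95 with circRNA and 2.92, 3.09, 2.77 and 2.90 in the PKR knockout. Group means were 2.14 ± 0.09, 2.64 ± 0.17, 2.93 ± 0.16 and 2.92 ± 0.13 in that order (SD, n = 3, 2, 4 and 4). Every 5xFAD library was above every wild type library, and the circRNA and knockout groups covered nearly the same range. Over the 5 GTPases it was 2.72, 2.48 and 2.44 in wild type, 2.31 and 2.12 in 5xFAD EGFP, 2.43, 2.72, 3.03 and 2.85 with circRNA and 2.33, 2.53, 2.67 and 2.21 in the knockout. Here 5xFAD EGFP was the lowest group and below every wild type library, the knockout overlapped both EGFP groups, and the circRNA libraries were all above 5xFAD EGFP. The GTPase mean with circRNA was above wild type by 0.21, but with each library rescaled to the same FPKM sum it was 2.68 against 2.70 in wild type and this order flipped. These means carry no test, because the genes were picked as a list.

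**Figure D1:**
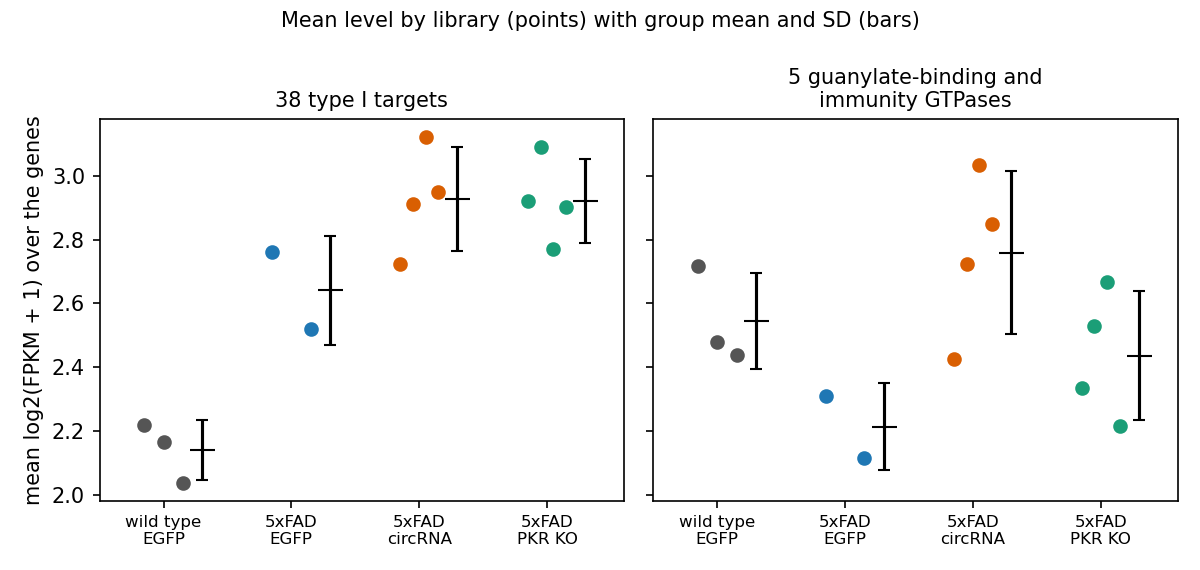
Mean log2(FPKM + 1) over the 38 type I targets (left) and the 5 GTPases (right), with 1 point per library and bars for the group mean and SD (n = 3, 2, 4 and 4). Type I targets stand higher in every 5xFAD library (2.52 to 3.12) than in wild type (2.04 to 2.22), whereas the GTPases are lowest in 5xFAD EGFP (2.12 and 2.31).

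The first comparison was between 5xFAD and wild type mice that both received EGFP. Of 36 tested type I targets 11 rose in 5xFAD, namely Stat2, Ifit2, Usp18, Ube2l6, Bst2, Ifi27l2a, Ifi204, Zbp1, Sp100, Cxcl10 and Lgals3bp, with log2 changes from 0.48 to 2.27. Of the 5 GTPases Gbp3 and Gbp7 fell. In limma the 13 calls among 43 tested members compare with 14.0% of all 10817 genes called, 7.65% higher and 6.35% lower. No type I target was called lower by limma on log2(FPKM + 1). At an unadjusted p under 0.05, 20 type I targets were higher and 0 lower, beside 12.4% and 13.8% of all genes. In limma's voom on recovered fragments, which also gave 11 higher and 2 lower calls, no type I target was called lower. The median log2 change was 0.35 over the type I targets and -0.16 over the GTPases, beside -0.03 over all tested genes. The groups did not overlap, with 5xFAD higher, for 22 of the 43 (16.5% of all tested genes), and with 5xFAD lower for 3 (21.1%). With libraries rescaled to the same FPKM sum the median of all genes was -0.17, and all 13 calls remained among 15. Only 2 libraries stand for 5xFAD EGFP, and without replicate 1 the calls numbered 7, with Stat2, Usp18, Ube2l6, Bst2, Sp100 and Gbp3 lost (adjusted p from 0.0896 to 0.184). Without replicate 2 they numbered 8, with Stat2, Sp100, Cxcl10, Gbp3 and Gbp7 lost (adjusted p from 0.0777 to 0.1001). Microglia were measured in bulk, so a change in the share of responding cells and a change in RNA per cell cannot be told apart.

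The next comparisons asked how microglia of 5xFAD mice given circRNA or lacking PKR compared with those of 5xFAD mice given EGFP. With circRNA none of the 43 members passed limma's test against 5xFAD EGFP, as 0% of all genes did, and voom also gave 0. All 43 differences were above 0, as were 77.7% of all tested genes. At an unadjusted p under 0.05 there were 13 members, all higher, beside 4.54% of all genes higher at that level. The median log2 difference was 0.30 for type I targets and 0.51 for GTPases, beside 0.08 for all genes. The smallest p-values belonged to Gbp3 (log2 difference 0.57 ± 0.14 SE), Gbp2 (1.03 ± 0.27), Zbp1 (0.50 ± 0.15) and Igtp (0.51 ± 0.16), each with an adjusted p of 0.739 in limma. In these 4 genes every circRNA library was above both EGFP libraries, which was the case for 12 of the 43 (16.6% of all tested genes), while no member had every circRNA library lower (2.65%). The summed T and NK cell markers were also higher in every circRNA library (0.656 to 0.839 FPKM) than in 5xFAD EGFP (0.471 to 0.537), although each marker alone overlapped. Their part in these differences was not tested.

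None of the 43 passed in the PKR knockout against 5xFAD EGFP, in limma or in voom, and 0.0832% of all genes passed in limma. Differences were above 0 for 40 of 43, against 51.8% of all genes, and 9 were higher at an unadjusted p under 0.05, against 7.41%, and 0 were lower, against 5.57%. The groups did not overlap, with the knockout higher, for 18 (17.7%). The median log2 difference was 0.25 for type I targets and 0.25 for GTPases, beside 0.01 for all genes. The smallest p-values belonged to Irf1 (0.70 ± 0.14 SE, adjusted p = 0.0822), Isg15 (0.72 ± 0.16 SE, adjusted p = 0.132), Usp18 (0.51 ± 0.15 SE, adjusted p = 0.216) and Zbp1 (0.47 ± 0.15 SE, adjusted p = 0.238). Irf1 passed with the scaling to the median ratio of genes (adjusted p = 0.0481) and without wild type replicate 3 (adjusted p = 0.0299), and in a fit of these 2 groups alone Irf1 and Isg15 passed (adjusted p = 0.00931 and 0.00672). T and NK cell markers summed to 0.568 to 0.731 FPKM in the knockout, also above both EGFP libraries, although of the single markers Nkg7 alone was separate. Their part was not tested. With 1 library left out, 8 of the 14 member differences from EGFP described here for circRNA and 10 of the 15 for the knockout moved by over 1.5 times, and 0 changed sign. Both comparisons share the same 2 EGFP libraries, so their directions are not independent of each other.

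**Figure D2:**
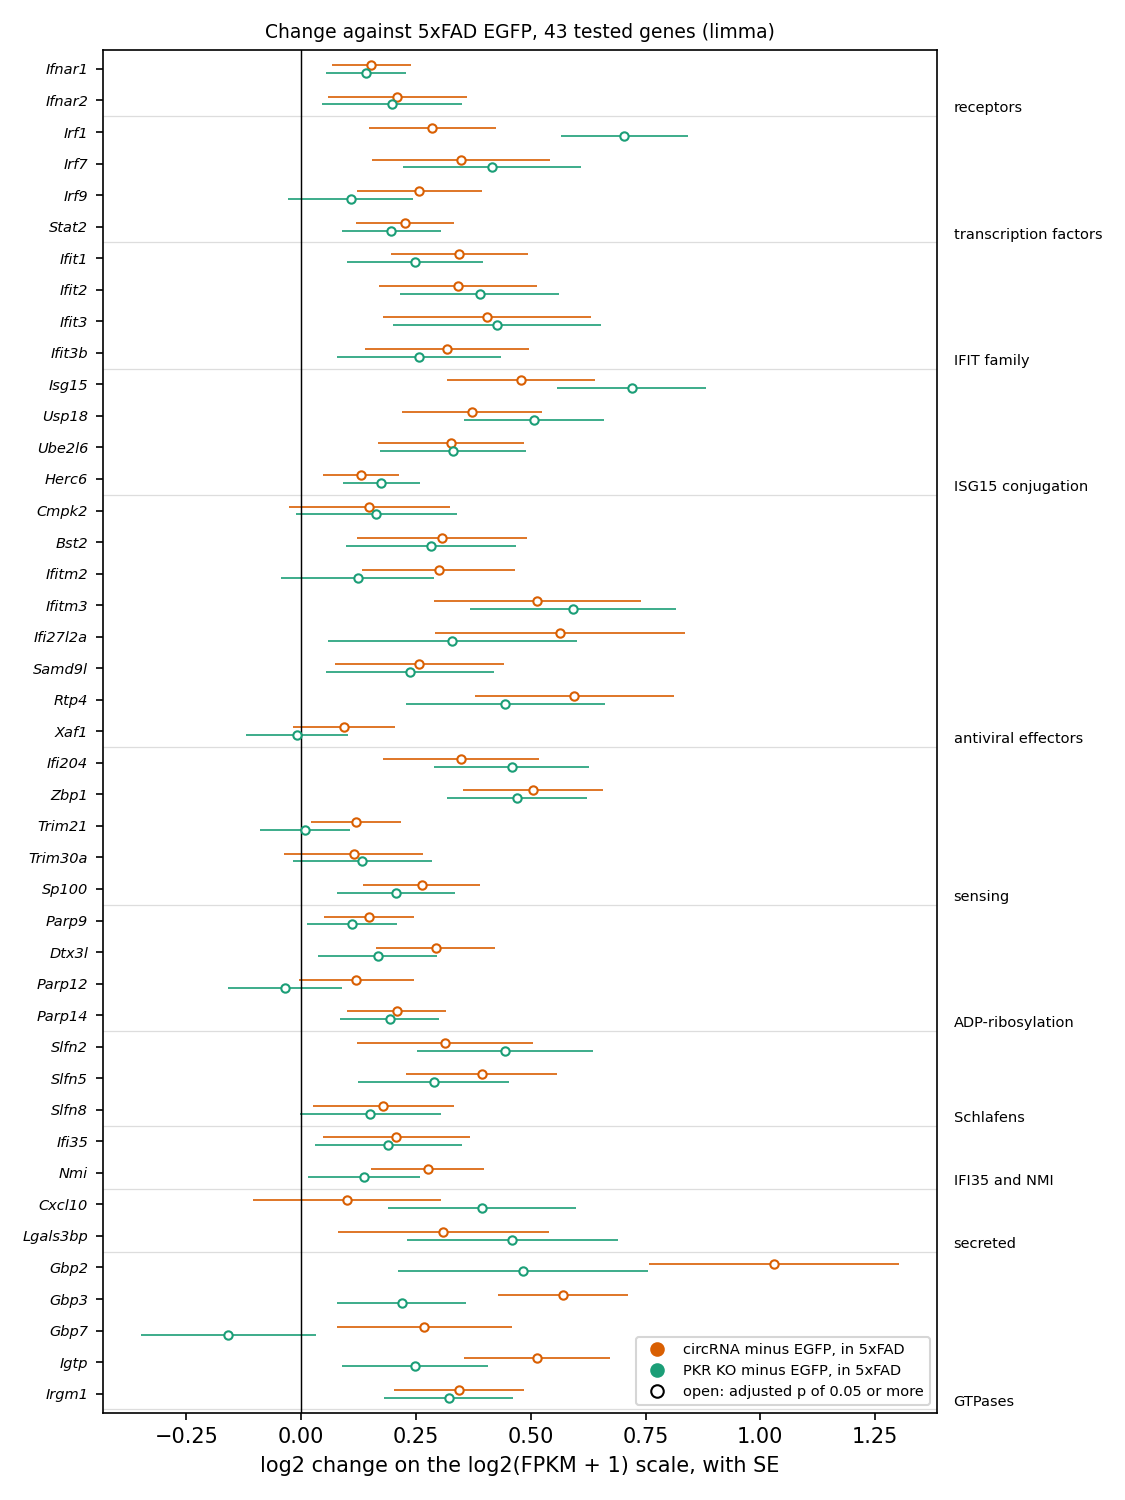
Log2 difference from 5xFAD EGFP on the log2(FPKM + 1) scale for the 43 tested genes, grouped by role, with points for circRNA (orange) and PKR knockout (green) and bars for the SE from limma. Every point is open, since no adjusted p was under 0.05; Gbp2 with circRNA (1.03) and Isg15 and Irf1 in the knockout (0.72 and 0.70) lie farthest to the right in their groups.

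Set directly against each other, circRNA and PKR knockout differed in 1 of the 43 members, beside 6.19% of all genes called (4.28% higher and 1.91% lower with circRNA). Irf1 was lower with circRNA (adjusted p = 0.0491), a call lost in 13 of 21 other settings, among them those with no filter, with the replicate block and with the covariate of other-cell markers. It was the member with an unadjusted p under 0.05 in that direction (5.90% of all genes) and with groups that did not overlap (4.44%). The median log2 difference was 0.02 over the type I targets and 0.35 over the GTPases, beside 0.08 over all genes. All 5 GTPases were above 0, and Gbp3 (0.35 ± 0.12), Gbp7 (0.43 ± 0.16) and Gbp2 (0.55 ± 0.22) were the 3 members with an unadjusted p under 0.05 and higher with circRNA, where 19.6% of all genes were. None passed after adjustment by limma, at 0.0846, 0.113 and 0.149. Differences were above 0 for 28 of the 43 members and 21 of the 36 type I targets, against 68.5% of all genes.

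Both groups were also compared with wild type EGFP, a contrast that combines genotype with treatment. With circRNA, 31 of 43 rose (28 type I targets, Gbp2, Irgm1 and Ifnar2) and Gbp7 fell, beside 25.8% of all genes called by limma (17.8% higher and 8.05% lower). In the PKR knockout 29 rose (27 type I targets, Irgm1 and Ifnar2) and Gbp3 and Gbp7 fell, beside 37.0% of all genes (17.5% higher and 19.4% lower). Median log2 changes over the type I targets were 0.65 with circRNA and 0.70 in the knockout, and those over the GTPases were 0.40 and 0.13, beside 0.02 and -0.05 over all genes. In both comparisons 40 of 43 were above 0 (54.5% of all genes with circRNA and 42.8% in the knockout). Groups did not overlap, with wild type lower, for 33 of the 43 with circRNA (20.2%) and 31 in the knockout (19.8%). Rescaling each library to the same FPKM sum moved the median of all genes to -0.20 and -0.24, and 24 of the 32 and 25 of the 31 calls remained. The calls lost with circRNA were Ifnar2, Irf1, Herc6, Ifitm2, Xaf1, Trim30a, Parp14 and Nmi (adjusted p from 0.0800 to 0.225). In the knockout they were Irf9, Ifit1, Ifitm3, Xaf1, Trim30a and Parp14 (adjusted p from 0.0584 to 0.266).

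**Figure D3:**
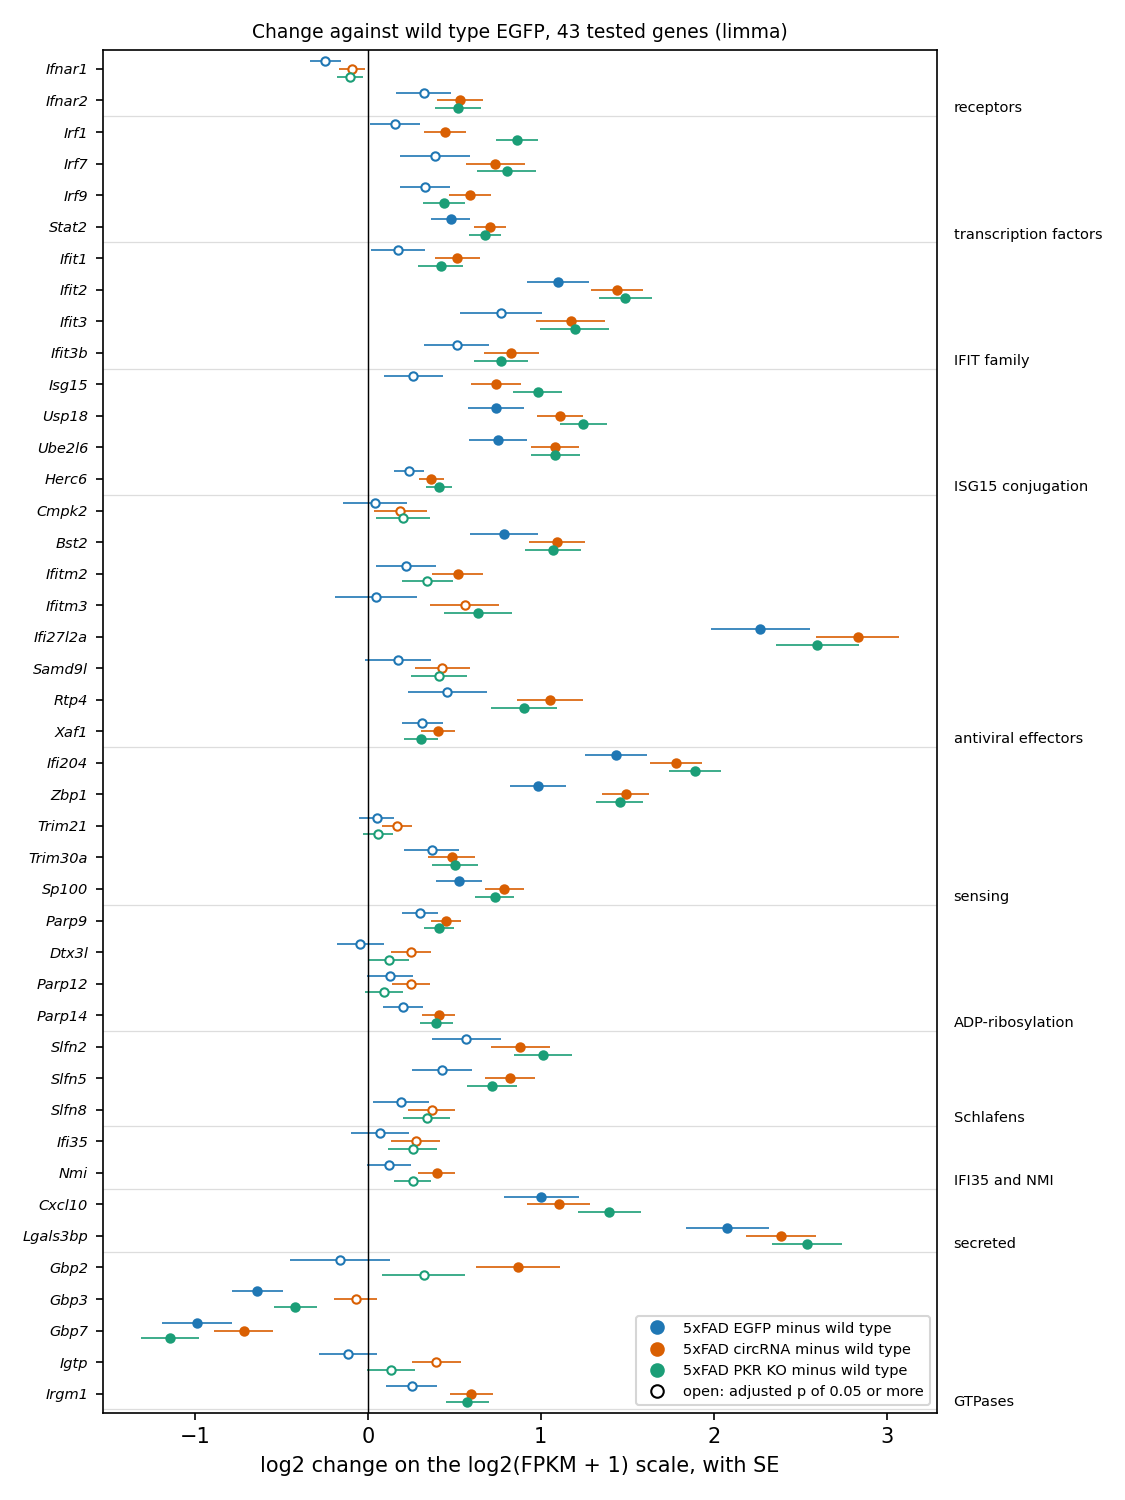
Log2 change from wild type EGFP on the log2(FPKM + 1) scale for the 43 tested genes, grouped by role, for 5xFAD EGFP (blue), circRNA (orange) and PKR knockout (green) with the SE from limma; filled points have an adjusted p under 0.05. Ifi27l2a and Lgals3bp lie farthest to the right in all 3 groups (2.08 to 2.83), and Gbp7 lies to the left of 0 in all 3 (-0.72 to -1.15).

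Of the receptor subunits, Ifnar2 rose with circRNA and in the knockout against wild type, and Ifnar1 passed in no comparison. Ifnar1 (chr16:91485238-91507441 in GRCm38, as are all gene positions here) measured 13.9, 12.7 and 13.2 FPKM in wild type, 11.0 and 11.1 in 5xFAD EGFP, 11.0, 12.5, 14.1 and 12.1 with circRNA and 11.8, 12.7, 12.1 and 12.6 in the knockout. Both 5xFAD EGFP libraries were below all wild type libraries, at a log2 change of -0.25 ± 0.091 (SE, adjusted p = 0.1), and against wild type the log2 difference was -0.093 ± 0.076 with circRNA and -0.10 ± 0.076 in the knockout. With libraries rescaled to the same FPKM sum it was lower than in wild type with EGFP (-0.41, adjusted p = 0.00279), with circRNA (-0.36, adjusted p = 0.000894) and in the knockout (-0.32, adjusted p = 0.00120). Ifnar2 (chr16:91372783-91405589), the signalling subunit, measured 21.3, 20.3 and 14.2 FPKM in wild type, 24.5 and 21.9 in 5xFAD EGFP, 24.8, 27.9, 32.0 and 23.6 with circRNA and 25.6, 28.0, 26.0 and 27.2 in the knockout. All 5xFAD libraries were above wild type, and the rise passed with circRNA (0.53 ± 0.13 SE, adjusted p = 0.0117) and in the knockout (0.52 ± 0.13 SE, adjusted p = 0.0100) but not with EGFP (0.32 ± 0.16 SE, adjusted p = 0.229). The Ifnar2 call with circRNA was lost with the same FPKM sum (adjusted p = 0.0800) and in the 2 groups alone (0.0645), and that in the knockout with the covariate of other-cell markers (0.0835). Against 5xFAD EGFP, Ifnar1 differed by 0.15 ± 0.086 with circRNA and 0.14 ± 0.086 in the knockout, and Ifnar2 by 0.21 ± 0.15 and 0.20 ± 0.15 (adjusted p from 0.492 to 0.739). Between circRNA and knockout the log2 differences were 0.012 ± 0.071 and 0.012 ± 0.12 (adjusted p of 0.934 and 0.967).

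The genes for interferons themselves were barely seen. Ifnb1 was listed at 0 in all 3 wild type libraries and in knockout replicate 2, and at most 0.155 FPKM elsewhere. Ifng was at most 0.129 FPKM, Ifna1 and Ifna2 were listed at 0 in every library, and Ifna4 was above 0 in 1 library. Of the signalling genes listed for the pathway 11 were tested, and in 5xFAD EGFP 3 rose and 0 fell, beside 7.65% and 6.35% of all genes. Those that rose included the myeloid factor Irf8 (0.56 ± 0.15 SE, adjusted p = 0.0260) and the phosphatase Ptpn6 (0.73 ± 0.18 SE, adjusted p = 0.0174). The kinase genes Jak1, Jak2 and Tyk2 and the factors Irf3 and Irf5 did not pass. Irf8 measured 31.1, 34.8 and 24.2 FPKM in wild type, 44.9 and 43.5 in 5xFAD EGFP, 44.6, 54.7, 57.4 and 44.96 with circRNA and 54.1, 57.1, 56.7 and 54.9 in the knockout. All 5xFAD libraries were above wild type.

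Stat2, a subunit of the type I complex, was the factor that rose in 5xFAD EGFP among the 4 transcription factors of the 45 genes. It measured 4.59, 4.38 and 4.01 FPKM in wild type, 6.45 and 6.39 in 5xFAD EGFP, 6.70, 7.15, 8.80 and 8.24 with circRNA and 7.36, 8.70, 7.08 and 6.98 in the knockout. The groups with and without 5xFAD were separate, by 0.48 ± 0.11 (SE, adjusted p = 0.0142) with EGFP, 0.71 ± 0.094 (SE, adjusted p = 0.000166) with circRNA and 0.68 ± 0.094 (SE, adjusted p = 0.000186) in the knockout. Stat2 was above both 5xFAD EGFP libraries in all 8 circRNA and knockout libraries, by 0.23 ± 0.11 and 0.20 ± 0.11 (adjusted p of 0.739 and 0.448), and circRNA minus knockout was 0.030 ± 0.087 (adjusted p = 0.863). Irf7, which amplifies interferon production, measured 1.60, 1.58 and 1.29 FPKM in wild type, 2.70 and 1.86 in 5xFAD EGFP, 2.19, 2.80, 4.60 and 3.34 with circRNA and 3.91, 3.87, 2.98 and 2.72 in the knockout. It was above wild type in every 5xFAD library, and passed with circRNA (0.74 ± 0.17 SE, adjusted p = 0.00730) and in the knockout (0.80 ± 0.17 SE, adjusted p = 0.00334) but not with EGFP (0.39 ± 0.20 SE, adjusted p = 0.255). With single libraries left out, the EGFP value ranged from 0.20 to 0.57. Irf7 differed from 5xFAD EGFP by 0.35 ± 0.19 with circRNA and 0.42 ± 0.19 in the knockout (adjusted p of 0.739 and 0.389), and circRNA minus knockout was -0.067 ± 0.16 (adjusted p = 0.822). Irf9, the DNA-binding subunit of the complex, rose in the same 2 comparisons by 0.59 ± 0.12 and 0.44 ± 0.12 (adjusted p of 0.00349 and 0.0136), and without wild type replicate 3 its knockout call was lost (adjusted p = 0.0506).

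Irf1 was the member called between circRNA and knockout. This gene, induced by both interferon types, measured 10.1, 10.5 and 7.86 FPKM in wild type, 10.8 and 10.5 in 5xFAD EGFP, 11.0, 13.6, 15.4 and 13.1 with circRNA and 17.0, 20.9, 18.1 and 16.2 in the knockout. Wild type and 5xFAD EGFP overlapped, circRNA was above both, and every knockout library was above every other library. Group means were 13.3 ± 1.82 FPKM with circRNA and 18.0 ± 2.05 in the knockout (SD, n = 4 each), and circRNA minus knockout was -0.42 ± 0.11 (SE, adjusted p = 0.0491). The adjusted p was 0.0518 without wild type replicate 2, 0.0697 and 0.0698 without 5xFAD EGFP replicates 1 and 2, and 0.131, 0.0700 and 0.0823 without circRNA replicates 1, 2 and 4. Without knockout replicates 1 to 4 it was 0.0945, 0.140, 0.103 and 0.0544. Against wild type Irf1 rose with circRNA (0.44 ± 0.12 SE, adjusted p = 0.0185) and in the knockout (0.86 ± 0.12 SE, adjusted p = 0.000208), and the circRNA call was lost without wild type replicate 3 (adjusted p = 0.0686).

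The IFIT proteins bind viral RNA and block its translation, and their 4 genes lie together on chromosome 19 (chr19:34550694-34576419 for Ifit2 and chr19:34583531-34588731 for Ifit3). Ifit2 measured 1.21, 1.39 and 1.96 FPKM in wild type, 5.15 and 3.67 in 5xFAD EGFP, 5.08, 5.93, 6.38 and 5.83 with circRNA and 5.29, 7.42, 4.67 and 7.07 in the knockout. Every 5xFAD library was above wild type, and in 5xFAD EGFP the mean was 2.90 times that of wild type, at a log2 change of 1.10 ± 0.18 (SE, adjusted p = 0.00186). Ifit2 also rose over wild type with circRNA (1.44) and in the knockout (1.49). Ifit3 measured 4.39, 4.62 and 4.55 FPKM in wild type, 10.6 and 6.64 in 5xFAD EGFP, 9.92, 9.14, 14.8 and 12.7 with circRNA and 11.2, 15.3, 8.34 and 12.7 in the knockout. It too was separate from wild type in every 5xFAD library, but missed the threshold with EGFP (0.77 ± 0.24 SE, adjusted p = 0.0505), a call it reached in 8 of 21 other settings. It rose with circRNA (1.17 ± 0.20 SE, adjusted p = 0.00101) and in the knockout (1.20 ± 0.20 SE, adjusted p = 0.000695), and circRNA minus knockout was -0.022 ± 0.18 (SE, adjusted p = 0.956). Ifit3 differed from 5xFAD EGFP by 0.40 ± 0.23 with circRNA and 0.43 ± 0.23 in the knockout (adjusted p of 0.739 and 0.440), where the groups overlapped. These were 0.71 and 0.73 without 5xFAD EGFP replicate 1 and 0.10 and 0.13 without replicate 2, and the change of Ifit3 in 5xFAD EGFP was 0.47 without replicate 1. Ifit3b and Ifit1 rose with circRNA (0.83 ± 0.16 and 0.52 ± 0.13) and in the knockout (0.77 ± 0.16 and 0.42 ± 0.13) and not with EGFP. Ifit1 lost its circRNA call without wild type replicate 2 (adjusted p = 0.0502) and its knockout call without wild type replicate 2 or knockout replicates 2 or 4 (0.0922, 0.0661 and 0.0643).

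ISG15 is a ubiquitin-like protein that is joined to other proteins through UBE2L6 and the ligase HERC6 in mouse, and removed by USP18, which also restrains the receptor. Isg15 measured 1.90, 1.64 and 2.62 FPKM in wild type, 3.04 and 2.25 in 5xFAD EGFP, 3.18, 4.10, 5.51 and 3.70 with circRNA and 4.90, 5.12, 4.73 and 5.15 in the knockout. Its 4 knockout libraries (4.98 ± 0.198 FPKM, SD, n = 4) and its 4 circRNA libraries were all above both 5xFAD EGFP libraries, of which replicate 2 overlapped wild type. Against wild type it did not pass with EGFP (0.26 ± 0.17 SE, adjusted p = 0.368) and rose with circRNA (0.74 ± 0.14 SE, adjusted p = 0.00237) and in the knockout (0.98 ± 0.14 SE, adjusted p = 0.000251). The EGFP value was 0.10 without 5xFAD EGFP replicate 1, 0.42 without replicate 2 and 0.16 without wild type replicate 2. Its difference from 5xFAD EGFP was 0.48 ± 0.16 with circRNA (adjusted p = 0.739), and circRNA minus knockout was -0.24 ± 0.13 (adjusted p = 0.272). Usp18 measured 1.18, 1.11 and 1.21 FPKM in wild type, 3.20 and 2.11 in 5xFAD EGFP, 2.76, 3.58, 4.32 and 4.21 with circRNA and 4.24, 4.96, 3.50 and 3.96 in the knockout. No 5xFAD library reached down to wild type, where the 3 values were nearly equal, and Usp18 rose by 0.74 ± 0.16 (SE, adjusted p = 0.00962) with EGFP and by 1.11 ± 0.14 and 1.25 ± 0.14 with circRNA and in the knockout. Ube2l6 rose in the same 3 comparisons (0.76 ± 0.17, 1.08 ± 0.14 and 1.09 ± 0.14), and Herc6 rose by 0.37 ± 0.074 and 0.41 ± 0.074 in the latter 2. All 4 genes of the system were called higher than wild type with circRNA and in the knockout, and 2 of 4 with EGFP, beside 17.8%, 17.5% and 7.65% of all genes.

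Among the 10 antiviral effectors 8 were tested, and Bst2 and Ifi27l2a rose with EGFP, beside 7.65% of all genes. Ifi27l2a (chr12:103442167-103443680), a small mitochondrial protein gene, gave the largest log2 change of the 43 tested members in each of the 3 comparisons with wild type. It measured 3.66, 3.26 and 2.50 FPKM in wild type, 23.1 and 15.3 in 5xFAD EGFP, 21.9, 25.3, 42.2 and 27.3 with circRNA and 25.1, 33.2, 17.1 and 22.8 in the knockout. The 5xFAD EGFP mean was 6.11 times the wild type mean (2.27 ± 0.29 SE, adjusted p = 0.000271), with all 10 5xFAD libraries far above wild type. Ifi27l2a also rose over wild type with circRNA (2.83) and in the knockout (2.60). Bst2, which encodes tetherin and holds budding virus at the membrane, measured 18.1, 19.9 and 13.4 FPKM in wild type, 34.3 and 26.0 in 5xFAD EGFP, 32.6, 37.2, 48.5 and 32.6 with circRNA and 39.0, 37.8, 37.8 and 32.2 in the knockout. It rose in 5xFAD EGFP by 0.79 ± 0.19 (SE, adjusted p = 0.0179), with circRNA by 1.09 ± 0.16 and in the knockout by 1.07 ± 0.16. Bst2 differed from 5xFAD EGFP by 0.31 ± 0.18 with circRNA and 0.28 ± 0.18 in the knockout (adjusted p of 0.739 and 0.518), and circRNA minus knockout was 0.024 ± 0.15 (adjusted p = 0.940).

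Ifitm3, which blocks fusion of virus with endosomes, did not separate the EGFP groups. It measured 17.8, 14.3 and 20.8 FPKM in wild type, 22.0 and 14.8 in 5xFAD EGFP, 19.6, 25.7, 35.2 and 26.5 with circRNA and 31.8, 31.1, 22.4 and 26.5 in the knockout. Wild type and 5xFAD EGFP overlapped (log2 difference 0.045 ± 0.24 SE, adjusted p = 0.932, and -0.12 with libraries rescaled to the same sum), and every knockout library was above wild type (0.64 ± 0.20 SE, adjusted p = 0.0249), while circRNA missed the threshold (0.56 ± 0.20 SE, adjusted p = 0.0562). Ifitm3 differed from 5xFAD EGFP by 0.51 ± 0.22 with circRNA and 0.59 ± 0.22 in the knockout (adjusted p of 0.739 and 0.293), and circRNA minus knockout was -0.078 ± 0.18 (adjusted p = 0.824). The knockout call of Ifitm3 against wild type was lost without wild type replicates 1 or 2 (adjusted p = 0.0586 and 0.0920) or knockout replicates 1 or 2 (0.0628 and 0.0641). Rtp4 rose with circRNA (1.06 ± 0.19) and in the knockout (0.90 ± 0.19), as did Xaf1, a partner of the apoptosis inhibitor XIAP (0.41 ± 0.098 and 0.31 ± 0.098), and Ifitm2 rose with circRNA (0.52 ± 0.15 SE, adjusted p = 0.0212). The Xaf1 knockout call was lost without wild type replicate 1 (adjusted p = 0.0991) or knockout replicates 1 or 2 (0.0677 and 0.0786). The Ifitm2 call was lost without wild type replicates 2 or 3 (0.0822 and 0.0616) or circRNA replicate 2 (0.0555). Cmpk2 and Samd9l passed in none of the 6 comparisons. Rsad2, which encodes viperin and fell under the filter, measured 0.483 to 0.590 FPKM in wild type and 0.811 to 1.45 in all 5xFAD libraries. Ifi44 was at 0.120 to 0.192 FPKM in wild type and 0.152 to 0.464 in 5xFAD, with overlap.

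**Figure D4:**
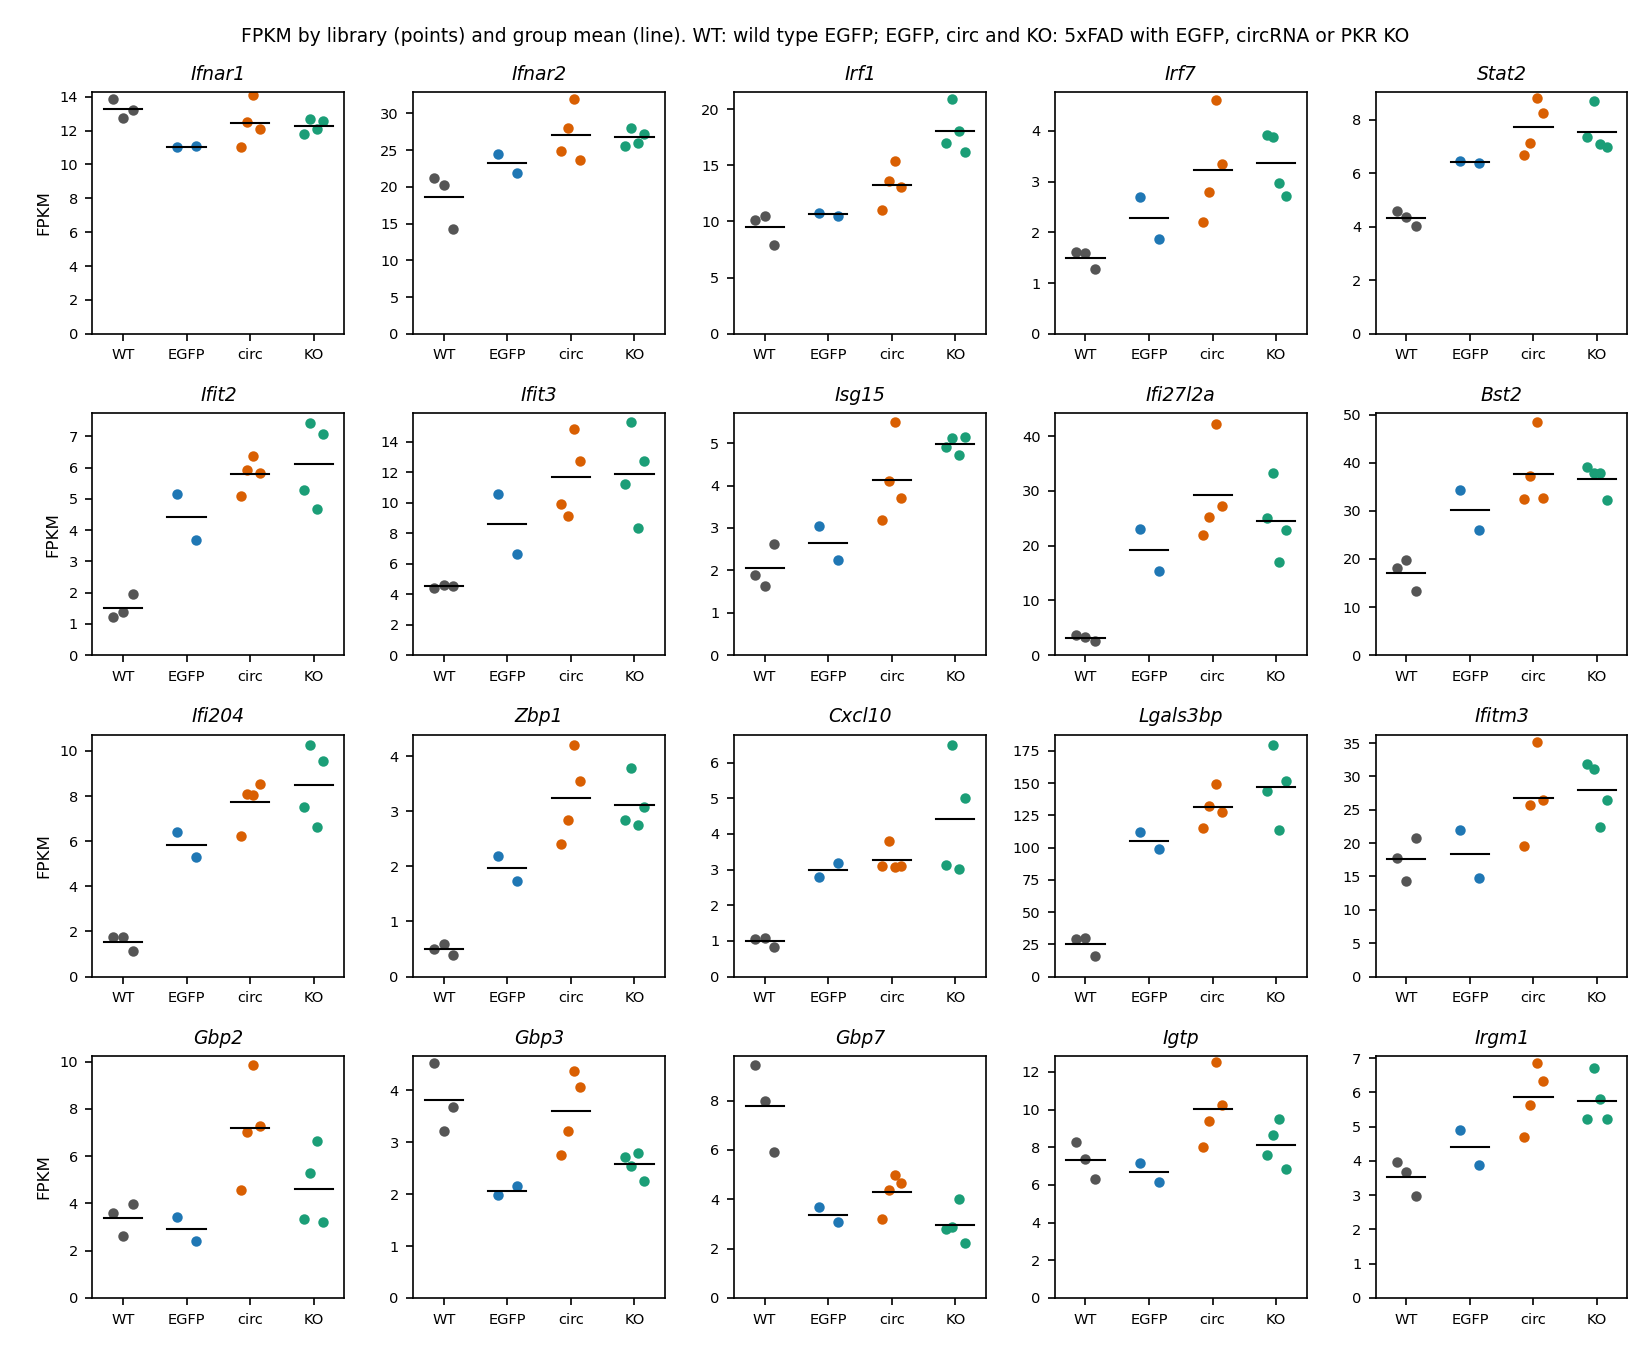
FPKM by library for 20 of the 45 genes, with 1 point per library in 4 groups (WT, wild type EGFP; EGFP, circ and KO, 5xFAD with EGFP, circRNA or PKR knockout) and a line at each group mean; every axis starts at 0. Ifi204 lies at 1.12 to 1.77 FPKM in wild type and 5.29 to 10.3 in the 5xFAD libraries, Ifitm3 overlaps between the EGFP groups, and Gbp7 lies at 5.93 to 9.44 FPKM in wild type and 2.21 to 4.97 in 5xFAD.

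The sensors Ifi204 and Zbp1 rose in all 3 comparisons with wild type, as did Sp100. Ifi204 (chr1:173747293-173766943), a DNA sensor of the HIN-200 family, measured 1.77, 1.74 and 1.12 FPKM in wild type, 6.40 and 5.29 in 5xFAD EGFP, 6.23, 8.09, 8.06 and 8.54 with circRNA and 7.49, 10.3, 6.64 and 9.57 in the knockout. The 3 5xFAD groups were all separate from wild type, by 1.43 ± 0.18 (SE, adjusted p = 0.000258), 1.78 ± 0.15 (SE, adjusted p = 4.61e-06) and 1.89 ± 0.15 (SE, adjusted p = 1.96e-06). Zbp1, a sensor of left-handed nucleic acid that can start necroptosis, measured 0.498, 0.588 and 0.399 FPKM in wild type, 2.20 and 1.73 in 5xFAD EGFP, 2.41, 2.84, 4.20 and 3.55 with circRNA and 2.84, 3.79, 2.75 and 3.08 in the knockout. It rose by 0.99 ± 0.16 (SE, adjusted p = 0.00176) with EGFP and by 1.49 ± 0.13 and 1.46 ± 0.13 with circRNA and in the knockout, and all 8 libraries of those 2 groups were above both 5xFAD EGFP libraries. Sp100, a nuclear body component, rose in the 3 comparisons by 0.53 ± 0.13, 0.79 ± 0.11 and 0.73 ± 0.11, and its EGFP call was also lost without wild type replicate 1 (adjusted p = 0.0540). Trim30a rose with circRNA (0.48 ± 0.13) and in the knockout (0.50 ± 0.13), the former call being lost without wild type replicate 3 (adjusted p = 0.0508), where the 2 values were 0.30 and 0.32. Trim21, an antibody receptor of the cytosol, lay between 2.80 and 4.25 FPKM in all 13 libraries and passed in no comparison.

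The 4 genes of ADP-ribosylation, the 3 Schlafens and the pair of IFI35 and NMI included none that passed with EGFP (0 of 9 in limma and voom, 3 higher and 0 lower at an unadjusted p under 0.05, beside 12.4% and 13.8% of all genes). Parp9 and Parp14 rose with circRNA (0.45 ± 0.087 and 0.41 ± 0.096) and in the knockout (0.41 ± 0.087 and 0.40 ± 0.096). Dtx3l, the ubiquitin ligase that pairs with PARP9, and Parp12 passed in no comparison. Slfn2, needed for quiescence of myeloid and T cells, rose with circRNA (0.88 ± 0.17 SE, adjusted p = 0.00227) and in the knockout (1.01 ± 0.17 SE, adjusted p = 0.000688). It measured 5.43, 5.67 and 3.92 FPKM in wild type, 9.23 and 6.63 in 5xFAD EGFP, 7.94, 10.4, 13.2 and 9.03 with circRNA and 12.2, 12.5, 10.3 and 9.40 in the knockout, with wild type below every 5xFAD library. Slfn5 rose in the same comparisons (0.82 ± 0.15 and 0.72 ± 0.15) and Slfn8 in none. Nmi rose with circRNA (0.40 ± 0.11 SE, adjusted p = 0.0174), a call lost without wild type replicate 3 (0.25, adjusted p = 0.0532), and Ifi35, its binding partner, passed in no comparison.

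The 2 secreted products rose in every comparison with wild type, beside 7.65% of all genes with EGFP, 17.8% with circRNA and 17.5% in the knockout. Lgals3bp (chr11:118392751-118402092) measured 28.8, 29.9 and 16.2 FPKM in wild type, 112 and 98.9 in 5xFAD EGFP, 115, 132, 150 and 128 with circRNA and 144, 179, 114 and 151 in the knockout. Its lowest 5xFAD library (98.9) was far above its highest wild type library (29.9), and the rise was 2.08 ± 0.24 (SE, adjusted p = 0.000142) with EGFP, 2.39 ± 0.20 (SE, adjusted p = 4.86e-06) with circRNA and 2.54 ± 0.20 (SE, adjusted p = 2.06e-06) in the knockout. Cxcl10, a chemokine that draws T cells through CXCR3, measured 1.05, 1.09 and 0.827 FPKM in wild type, 2.78 and 3.19 in 5xFAD EGFP, 3.11, 3.81, 3.08 and 3.11 with circRNA and 3.13, 6.50, 3.03 and 5.00 in the knockout. Its 5xFAD groups were separate from wild type and overlapped each other, and the rise was 1.00 ± 0.22 (SE, adjusted p = 0.00896), 1.10 ± 0.18 (SE, adjusted p = 0.000772) and 1.40 ± 0.18 (SE, adjusted p = 0.000105). The knockout libraries fell into a low pair (replicates 1 and 3) and a high pair (replicates 2 and 4), and circRNA minus knockout was -0.29 ± 0.17 (SE, adjusted p = 0.286). It did not pass against EGFP with circRNA (0.099 ± 0.20) and in the knockout (0.39 ± 0.20), at adjusted p-values of 0.868 and 0.431.

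Guanylate-binding proteins attack membranes of vacuoles that hold pathogens. Of the 5 GTPases, Gbp3 and Gbp7 fell in 5xFAD EGFP and none rose, beside 6.35% and 7.65% of all genes. Gbp7 (chr3:142530342-142550149) measured 9.44, 7.98 and 5.93 FPKM in wild type, 3.69 and 3.06 in 5xFAD EGFP, 3.22, 4.39, 4.97 and 4.64 with circRNA and 2.79, 2.86, 4.00 and 2.21 in the knockout. Every 5xFAD library was below every wild type library, and Gbp7 fell in all 3 groups, with log2 changes of -0.99 ± 0.20 (SE, adjusted p = 0.00670) with EGFP, -0.72 ± 0.17 (SE, adjusted p = 0.00788) with circRNA and -1.15 ± 0.17 (SE, adjusted p = 0.000277) in the knockout. Gbp3 (chr3:142560026-142573209) measured 4.53, 3.21 and 3.68 FPKM in wild type, 1.98 and 2.15 in 5xFAD EGFP, 2.75, 3.22, 4.37 and 4.06 with circRNA and 2.71, 2.54, 2.79 and 2.26 in the knockout. It fell with EGFP (-0.64 ± 0.15 SE, adjusted p = 0.0136) and in the knockout (-0.42 ± 0.12 SE, adjusted p = 0.0197), while the circRNA libraries overlapped wild type (-0.070 ± 0.12 SE, adjusted p = 0.734) and were all above 5xFAD EGFP. The Gbp3 knockout call was lost without wild type replicate 1 (adjusted p = 0.0901) or knockout replicate 4 (0.0530), and with the covariate of other-cell markers (0.0765). The summed endothelial, mural and border macrophage markers were also lower in both 5xFAD EGFP libraries than in every wild type library. With the covariate of other-cell markers the log2 changes with EGFP were -1.05 for Gbp7 (adjusted p = 0.00167) and -0.62 for Gbp3 (adjusted p = 0.00926). This covariate pools vascular markers, which were lower in 5xFAD EGFP, with neuron and oligodendrocyte markers, which were not, and holds no border macrophage marker, so the part of vascular cells and border macrophages in the fall of Gbp3 and Gbp7 was not tested.

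Gbp2 (chr3:142620602-142638008) gave the largest log2 difference of the 43 members between circRNA and 5xFAD EGFP. It measured 3.59, 2.63 and 3.97 FPKM in wild type, 3.44 and 2.43 in 5xFAD EGFP, 4.57, 7.03, 9.86 and 7.27 with circRNA and 3.36, 5.26, 6.66 and 3.23 in the knockout. All circRNA libraries were above wild type and 5xFAD EGFP, which overlapped each other, and the knockout overlapped all 3 groups. The circRNA mean was 2.45 times that of 5xFAD EGFP, a log2 difference of 1.03 ± 0.27 (SE, adjusted p = 0.739), and against wild type Gbp2 rose by 0.87 ± 0.24 (SE, adjusted p = 0.0190). The latter call was lost without circRNA replicate 3 (adjusted p = 0.0520) or wild type replicate 2 (0.0712). Against wild type it did not pass with EGFP (-0.16 ± 0.29 SE, adjusted p = 0.776, and 0.0093 with the replicate number as a block) or in the knockout (0.32 ± 0.24 SE, adjusted p = 0.312), which differed from 5xFAD EGFP by 0.48 ± 0.27 (adjusted p = 0.462).

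Igtp (chr11:58199556-58207591), which encodes IRGM3, measured 8.28, 7.38 and 6.32 FPKM in wild type, 7.19 and 6.14 in 5xFAD EGFP, 7.995, 9.37, 12.5 and 10.2 with circRNA and 7.57, 8.68, 9.49 and 6.83 in the knockout. It passed in no comparison, and circRNA against EGFP had a log2 difference of 0.51 ± 0.16 (SE, adjusted p = 0.739), with the groups not overlapping. Against wild type Igtp differed by -0.12 ± 0.17 with EGFP, 0.40 ± 0.14 with circRNA and 0.13 ± 0.14 in the knockout (adjusted p of 0.714, 0.0558 and 0.486). The knockout differed from 5xFAD EGFP by 0.25 ± 0.16, and circRNA minus knockout was 0.26 ± 0.13 (adjusted p of 0.509 and 0.222). Irgm1 (chr11:48861968-48871683), a regulator of autophagy, measured 3.98, 3.66 and 2.96 FPKM in wild type, 4.91 and 3.89 in 5xFAD EGFP, 4.69, 5.62, 6.86 and 6.33 with circRNA and 5.23, 6.72, 5.80 and 5.23 in the knockout. It rose with circRNA (0.60 ± 0.12 SE, adjusted p = 0.00402) and in the knockout (0.57 ± 0.12 SE, adjusted p = 0.00384) and not with EGFP (0.25 ± 0.15 SE, adjusted p = 0.315). Its circRNA and knockout libraries overlapped (0.023 ± 0.12 SE, adjusted p = 0.924), and they differed from 5xFAD EGFP by 0.34 ± 0.14 and 0.32 ± 0.14 (adjusted p of 0.739 and 0.365).

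Other GTPases and other interferon-stimulated genes, listed for the pathway by name, were read in the same fit. Of 10 further GTPases 6 were tested, and in 5xFAD EGFP Gbp5 fell (-0.45 ± 0.13 SE, adjusted p = 0.0398) and Gvin1 rose (0.98 ± 0.15 SE, adjusted p = 0.00103), beside 6.35% of all genes lower and 7.65% higher. Gbp5 measured 2.44, 2.00 and 2.39 FPKM in wild type, 1.41 and 1.38 in 5xFAD EGFP, 1.67, 2.22, 2.52 and 2.20 with circRNA and 1.52, 2.02, 2.23 and 1.54 in the knockout. Both 5xFAD EGFP libraries were below all other libraries. Among the 6 tested, all but Irgm2 had every circRNA library above both 5xFAD EGFP libraries (16.6% of all genes), and the same 5 had an unadjusted p under 0.05 (4.54%), but the adjusted p was 0.739 at the smallest. With circRNA 3 of the 6 rose over wild type and 0 fell, beside 17.8% and 8.05% of all genes. These were Gvin1 (1.29) and the near-identical T-cell GTPases Tgtp1 and Tgtp2 (0.64 ± 0.17 and 0.95 ± 0.19). Of 29 further interferon-stimulated genes 26 were in the table and 24 were tested, and 11 rose and none fell in 5xFAD EGFP by limma, beside 7.65% and 6.35% of all genes. At an unadjusted p under 0.05, 15 were higher and 0 lower, beside 12.4% and 13.8%. The 11 that rose included B2m (1.22 ± 0.22 SE, adjusted p = 0.00292), the light chain of class I molecules, Nlrc5 (1.10 ± 0.16 SE, adjusted p = 0.000782), the activator of class I genes, and the 2-5A synthetase relative Oasl2 (0.94 ± 0.18 SE, adjusted p = 0.00404). With circRNA 18 rose against wild type and 0 fell, beside 17.8% and 8.05% of all genes. In the knockout 19 rose and Eif2ak2, the targeted gene, fell (-0.27 ± 0.10 SE, adjusted p = 0.0486), beside 17.5% and 19.4%. None passed against 5xFAD EGFP with circRNA (0 in limma, 6 higher at an unadjusted p under 0.05, beside 4.54% of all genes) or in the knockout (0 in limma, 7 higher and 1 lower, beside 7.41% and 5.57%).

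Within groups, the same library was often the highest or lowest for many members. In wild type, replicate 1 was the highest for 24 of 45 members (52.5% of tested genes) and replicate 3 the lowest for 27 of 45 (55.0%). In 5xFAD EGFP, replicate 1 was above replicate 2 for 41 of 45 members and for 75.7% of all tested genes. Among the circRNA libraries replicate 3 was the highest for 35 of 45 (56.6% of tested genes) and replicate 1 the lowest for 39 of 45 (24.5%). In the knockout, replicate 2 was the highest for 28 of the 38 type I targets (17.7%) and replicate 3 the lowest for 25 of 38 (25.2%), yet replicate 3 was the highest for 4 of the 5 GTPases. Replicate 4 of the knockout was the lowest for all 5 GTPases (30.8%). The median coefficient of variation of the members was 18.7% in wild type, 13.5% in 5xFAD EGFP, 16.0% with circRNA and 14.1% in the knockout, beside 13.4%, 6.63%, 10.8% and 8.57% over all tested genes.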

How the data were processed

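Members and gene lists were chosen with earlier results of these data known, and the pathway and marker lists were taken by name. Per the labels' protocols, total RNA was depleted of ribosomal RNA and sequenced as stranded libraries. Per the submitters' processing notes, Bowtie2 2.3.5, HISAT2 2.1.0 and featureCounts 1.5.1 were used with mm10. The annotation and the strand setting are not given in the sources used here. The authors deposited 1 table of FPKM for 19737 genes and 13 libraries, with no counts. The steps of the low values gave whole fragments within 0.02 for 91.1% to 93.5% of them, and depths of 45200000 to 69800000 fragments.

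From that table log2(FPKM + 1) was computed for genes averaging 1 FPKM or more, and limma 3.58.1 (R 4.3.3) was fitted to the 13 libraries with group means, a mean-variance trend and 9 residual degrees of freedom, after a test on simulated data. Fold changes are on this scale, which understates those of low genes. P-values are two-sided and were adjusted by Benjamini-Hochberg over all 10817 genes within each of 6 comparisons, with a threshold of 0.05. All 45 members are named. Tests are printed where a member passed, for 12 members in every comparison (Ifit3, Isg15, Irf7, Stat2, Cxcl10, Bst2, Ifitm3, Gbp2, Igtp, Irgm1, Ifnar1 and Ifnar2), and for the 4 smallest p-values where fewer than 5 passed. Alternatives were a pseudocount of 0.1, no filter, rescaling by median ratios or to the same FPKM sum, the 2 groups alone, the replicate number as a block, a covariate of other-cell markers, and each library left out. The voom fit on recovered fragments was chosen after seeing the data. Gene positions are those of GENCODE M21. Some results that name withheld items are not reported here.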

Additional observations from a re-analysis of the deposited data

Results flagged for a closer look

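Among 96 checks of the highest and lowest library within groups of 4, 2 members had a library far from the others, and chance gives about 5% of such checks. Cxcl10 with circRNA was 3.81 FPKM in replicate 2, while the other 3 libraries lay between 3.08 and 3.11. Samd9l in the PKR knockout was 3.93 FPKM in replicate 2, while the other 3 lay between 2.14 and 2.29.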

How the results depend on the processing

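Over 21 alternatives, the 77 member changes called at the threshold gave 1617 values, of which 1540 kept call and direction, 77 lost the call and 0 changed sign. The 58 printed uncalled differences gave 1218 values, of which 23 gained a call and 37 changed sign. With 1 library left out, uncalled differences from wild type moved by over 1.5 times for 8 of 9 with EGFP, 1 of 3 with circRNA and 2 of 3 in the knockout. For circRNA against knockout 11 of 14 did. In 5xFAD EGFP against wild type the range was 0.15 to 0.43 for Ifnar2, 0.11 to 0.39 for Irgm1 and -0.22 to -0.018 for Igtp. With single libraries left out, the number of called members ranged from 7 to 15 for 5xFAD EGFP against wild type, 0 to 0 for circRNA against EGFP, 0 to 1 for PKR knockout against EGFP, 29 to 36 and 28 to 32 for circRNA and knockout against wild type, and 0 to 1 for circRNA against knockout. For knockout against EGFP, median-ratio scaling gave 1 call and the 2 groups alone gave 2. For circRNA against knockout there were 0 calls with no filter, with the replicate block and with the covariate of other-cell markers. In the fit of the 2 groups alone, Stat2, Bst2 and Gbp3 lost their calls for 5xFAD EGFP (adjusted p of 0.0577, 0.0989 and 0.0577), as did Ifnar2, Irf1, Ifitm2, Trim30a and Nmi for circRNA against wild type (0.0535 to 0.0771). The covariate ended the knockout calls against wild type of Ifnar2, Irf9, Xaf1, Trim30a, Parp14 and Gbp3 (0.0547 to 0.0983). The causes were not tested.

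Signs changed with the same FPKM sum for Ifitm3 in 5xFAD EGFP (-0.12), for Igtp in the knockout against wild type (-0.075), and for circRNA minus knockout in Ifnar1 (-0.041), Ifnar2 (-0.044), Stat2 (-0.021), Bst2 (-0.033) and Irgm1 (-0.026). Median-ratio scaling changed the last 5 to -0.11, -0.11, -0.085, -0.10 and -0.088. With single libraries left out, the log2 difference in 5xFAD EGFP ranged from -0.23 to 0.32 for Ifitm3 and from -0.35 to 0.026 for Gbp2. For circRNA minus knockout it ranged from -0.046 to 0.063 for Ifnar1, -0.069 to 0.072 for Ifnar2, -0.21 to 0.06 for Irf7, -0.028 to 0.093 for Stat2, -0.17 to 0.10 for Ifit3, -0.10 to 0.087 for Bst2, -0.22 to 0.055 for Ifitm3 and -0.045 to 0.11 for Irgm1.

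With the replicate block the calls numbered 13, 0, 0, 32, 30 and 0 in the order above, with Xaf1 (adjusted p = 0.0624) and Irf1 (0.0685) lost and Gbp2 at 0.0093 in 5xFAD EGFP. Same-numbered libraries deviated together by a mean r across genes of 0.02 to 0.33 per comparison, with single pairs from -0.42 to 0.69. Where there were 3 or more pairs, 1 of 3 or 1 of 4 correlated best with its own number. Where there were 2, this was 2 of 2 for knockout against 5xFAD EGFP (r of 0.27 and 0.38) and 1 of 2 otherwise. The numbers were not taken as pairs in the main fit. With 35 to 199 fragments per library, Ifi44 was not tested. The 2 libraries of 5xFAD EGFP limit every comparison with that group.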
